A study of Mus musculus with 8 samples.

Results

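The 2-cell burst genes are a group of mouse genes whose transcripts appear briefly when the embryo first transcribes its own genome. They were followed here in oocytes that lack Dicer, an enzyme that makes microRNAs and short interfering RNAs by cutting longer RNA. The members were 7 genes, Usp17la, Usp17lb, Usp17lc, Tcstv1, Tcstv3, Zscan4c and Zfp352, chosen with earlier results of these data known. Every probe set (a group of short probes for a transcript) that the platform annotation gives to a member was used, which came to 8 of 45037 probe sets. Of these, 5 carried a single gene symbol and covered Usp17la, Tcstv1, Tcstv3 and Zfp352. The other 3 carried several symbols: 2 stood for Usp17lc together with Usp17ld, and 1 for Zscan4c together with Zscan4a, Zscan4d, Zscan4f and 2 unnamed loci. Usp17lb was not analysed here, since the annotation used lists no probe set for it.

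The samples were fully grown oocytes with an intact germinal vesicle from female mice of the strain 129/C57BL6, 4 wild type and 4 labelled Dicer knockout. All females had been primed with eCG (equine chorionic gonadotropin, which makes follicles grow), and cumulus cells had been removed by pipetting. From each mouse, 20 oocytes were pooled, and their RNA went through 2 rounds of linear amplification before hybridisation to its own array. The age of the mice, the deleted exons and the way the deletion was driven are not given in the sources used here. Both Dicer1 probe sets read higher in the knockout, with log2 differences of 1.19 and 0.69, so neither shows a loss, and with the deleted exons unknown they do not check the genotype labels.

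In a normal mouse embryo the burst begins after fertilization, and its transcripts are scarce again within a day or so. Zscan4 proteins bind DNA through zinc fingers, carry a SCAN domain through which such proteins associate with each other, and are known for telomere lengthening and genome stability in embryonic stem cells, where they appear only in a small changing share of the cells. The Usp17-like genes encode deubiquitinating enzymes, proteases that take ubiquitin off other proteins, and were first known as genes switched on by cytokines in blood cells. Tcstv1 and Tcstv3 encode small related proteins found in 2-cell embryos, and Zfp352 encodes a zinc finger protein of the same stage. Many genes of this programme are switched on by the homeobox factor Dux and are held silent by repressive chromatin in stem cells.

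The Usp17-like and Zscan4 genes are families of near copies, and their upstream sequences show how alike the copies are. The 250 bases before the annotated start were read from RefSeq (assembly GRCm38.p6), which held 9 of 11 genes looked up, including 5 of the 7 members. The Usp17la stretch aligned to those of Usp17lc, Usp17ld and Usp17lb with 95.2%, 97.3% and 86.8% identity over 208, 186 and 235 aligned columns. Zscan4c aligned to Zscan4f, Zscan4d and Zscan4b with 99.6%, 97.1% and 94.7% over 227, 239 and 227. Ends left unaligned do not count in these shares. Between Usp17la, Zscan4c and Zfp352 the identity was 49.4% to 50.8%. The stretches below end at the base before the annotated start and are written in the direction of transcription. Capitals mark matches to TATAAA (the TATA box), to CCAAT or its reverse complement ATTGG (the CCAAT box, bound by the factor NF-Y), and to TGATTNAAT, letters that open the motif reported for Dux.

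Usp17la, chr7:104856866-104857015, + strand: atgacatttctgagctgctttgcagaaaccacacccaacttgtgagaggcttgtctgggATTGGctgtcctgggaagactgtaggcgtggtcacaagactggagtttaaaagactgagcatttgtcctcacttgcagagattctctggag

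Usp17lb, chr7:104842584-104842733, - strand: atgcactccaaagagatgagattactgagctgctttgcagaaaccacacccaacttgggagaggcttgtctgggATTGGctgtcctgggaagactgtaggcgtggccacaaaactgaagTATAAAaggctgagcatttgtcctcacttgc

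Usp17lc, chr7:103416546-103416695, + strand: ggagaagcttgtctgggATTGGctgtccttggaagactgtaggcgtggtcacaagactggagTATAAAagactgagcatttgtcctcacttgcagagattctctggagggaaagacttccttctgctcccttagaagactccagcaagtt

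Zscan4c, chr7:11005545-11005744, + strand: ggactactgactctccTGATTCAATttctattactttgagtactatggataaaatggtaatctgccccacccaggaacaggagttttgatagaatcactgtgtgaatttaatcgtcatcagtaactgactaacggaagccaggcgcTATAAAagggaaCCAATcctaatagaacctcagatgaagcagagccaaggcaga

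A CCAAT box on the reverse strand lies within the same surrounding letters in the 3 Usp17 stretches, 91 bases before the start of Usp17la, 76 before that of Usp17lb and 133 before that of Usp17lc. TATAAA matched in Usp17lb and Usp17lc, and had no match in the Usp17la window. Zscan4c held a TATA box and a CCAAT box close to its start, and TGATTNAAT 184 bases before it. Zscan4f also held TGATTNAAT, 161 bases before its start, and Zscan4b held it on the reverse strand, while no match was found in the Zscan4d, Zfp352 or Usp17 windows. Searched on both strands in the 250 bases before 32851 annotated starts, TATAAA occurred in 12.37%, CCAAT in 33.85% and TGATTNAAT in 0.66% of the windows. The motifs do not overlap each other in the letters shown, and a match is a description of the letters only.

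The arrays differed little as a whole. Array medians lay between 6.35 and 6.43 on the log2 scale, and pairs of arrays correlated at 0.9915 to 0.9947 within groups and 0.9797 to 0.9865 between them, taken over probe sets (not independent of each other). Wild-type array 1 was the highest of the 4 wild-type arrays in 46% of the probe sets that rose in the knockout, against 16% to 21.1% for the others, so each member that rose is also given without it. Oocyte transcripts such as Gdf9, a growth factor secreted by the oocyte (14.63 in wild type and 14.56 in knockout), were bright on the arrays of both groups. The words rose and fell refer to limma's moderated test with Benjamini-Hochberg adjusted p under 0.05, by which 16.1% of all probe sets passed, 6.82% rose and 9.31% fell.

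Of the 8 member probe sets, 3 rose and 0 fell in Dicer knockout oocytes, beside 6.82% and 9.31% of all probe sets. Because the members were chosen with earlier results of these data known, this count is no independent test of the group. Usp17la rose 10.3-fold, the Zscan4 probe set 6.28-fold and Tcstv1 1.62-fold. The probe sets of Tcstv3, of Usp17lc with Usp17ld and of Zfp352 did not pass. All 4 knockout arrays lay above all 4 wild-type arrays in 3 member probe sets, Usp17la, Zscan4 and one of those for Usp17lc with Usp17ld, a pattern found in 9.66% of all probe sets. Each array pools 20 oocytes, so more oocytes with a transcript and more transcript per oocyte cannot be told apart. On the same arrays 10 of 22 cumulus and granulosa cell markers fell and 0 rose, and of 21 leukocyte markers 3 rose and 2 fell, beside 8.18% of all genes that rose and 12.8% that fell. Their part in these results was not tested.

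**Figure D1:**
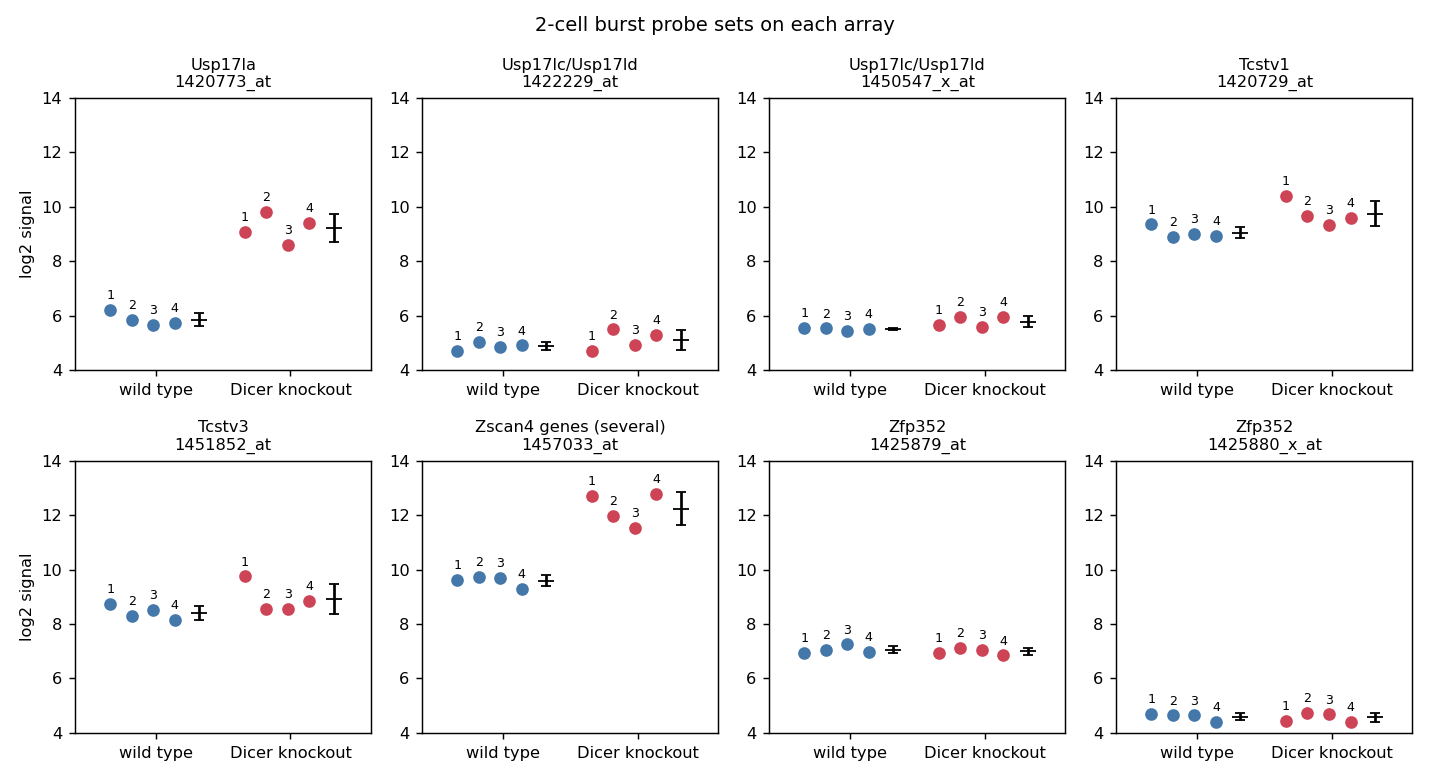
Log2 signal of the 8 member probe sets on each array (points, numbered by array within the group), with the group mean and SD as bars beside them (n = 4 per group). Knockout arrays stand clear of wild type for Usp17la (8.60 to 9.81 against 5.66 to 6.20) and Zscan4 (11.52 to 12.77 against 9.30 to 9.74), while Zfp352 overlaps in both of its probe sets.

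Usp17la, a deubiquitinase gene also known as Dub1, read 6.20, 5.83, 5.66 and 5.73 on wild-type arrays 1 to 4 in log2 signal and 9.07, 9.81, 8.60 and 9.42 on knockout arrays 1 to 4 (probe set 1420773_at). The groups were far apart: the lowest knockout array exceeded the highest wild-type array by 2.39. The means were 5.86 ± 0.243 and 9.22 ± 0.516 (SD, n = 4 and 4), a log2 difference of 3.37 ± 0.234 (SE), or 10.3-fold with a 95% interval of 7.18 to 14.9 (limma, adjusted p = 2.8e-05). Only 26 of the 45037 probe sets had a larger rise. On every wild-type array Usp17la read below the array median, and no detection calls were used, so the fold is relative to a dim signal. The difference was 3.17 to 3.58 whichever array was left out, and 3.48 without wild-type array 1. Among the wild-type arrays the highest was array 1, by 0.46 over the average of the rest.

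Usp17lc and Usp17ld, copies of the same enzyme family, share 2 probe sets with low signal. The first (1422229_at) read 4.71, 5.05, 4.86 and 4.91 on the wild-type arrays and 4.72, 5.50, 4.93 and 5.29 on the knockout arrays, with overlapping groups. Its log2 difference was 0.23 (95% interval -0.13 to 0.59, adjusted p = 0.404), and it was 0.10 without knockout array 2 and 0.36 without knockout array 1. The other (1450547_x_at) read 5.54, 5.53, 5.44 and 5.52 on the wild-type arrays and 5.66, 5.95, 5.60 and 5.95 on the knockout arrays, with every knockout array above every wild-type array by a narrow margin. Its difference of 0.28 (95% interval 0.07 to 0.50) missed the threshold (adjusted p = 0.0801) and passed without knockout array 3 (0.34, adjusted p = 0.0476).

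The change in signal was compared between these probe sets. Measured within each array, the Usp17la difference exceeded theirs by 3.14 and 3.09 log2 (exact two-sided permutation p = 0.0286 for each, 0.0476 after Benjamini-Hochberg adjustment over 5 such pairs of member probe sets). The smallest p that 4 against 4 arrays allow is 0.0286, and the 5 pairs were chosen after the values were seen. The Usp17lc and Usp17ld signals lay below the array medians, and no detection calls were used, so these values do not show that those genes changed less than Usp17la. Knockout arrays 2 and 4 were the brightest knockout arrays in all 3 Usp17 probe sets. The suffix _x marks probes that match several sequences, so signal from Usp17la or another copy in the probe set 1450547_x_at cannot be told apart from that of Usp17lc.

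Zscan4 was measured by 1 probe set that the annotation gives to several copies (1457033_at), so its signal cannot be given to Zscan4c alone. Of the 6 copies in the gene table, Zscan4b, Zscan4c, Zscan4d and Zscan4f are listed as coding and Zscan4a and Zscan4e as pseudogenes. The annotation of this probe set names neither Zscan4b nor Zscan4e. The probe set read 9.61, 9.74, 9.70 and 9.30 on the wild-type arrays and 12.70, 11.96, 11.52 and 12.77 on the knockout arrays. All knockout arrays were higher, and the gap between the groups was 1.78 log2. The means were 9.59 ± 0.197 and 12.24 ± 0.604 (SD, n = 4 and 4), a difference of 2.65 ± 0.259 (SE), or 6.28-fold with a 95% interval of 4.20 to 9.40 (adjusted p = 0.000162), and 76 probe sets rose more.

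In Zscan4 signal wild-type array 1 stood 0.03 above the average of the rest, where for Usp17la it stood 0.46 above. With single arrays left out the difference was 2.47 to 2.89, and 2.66 without wild-type array 1. The Zscan4 and Usp17la changes differed by 0.72 log2 (exact two-sided permutation p = 0.114, 0.143 adjusted). Their knockout arrays did not follow the same order: arrays 1 and 4 were highest for Zscan4 and arrays 2 and 4 for Usp17la, and array 3 was lowest for both.

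**Figure D2:**
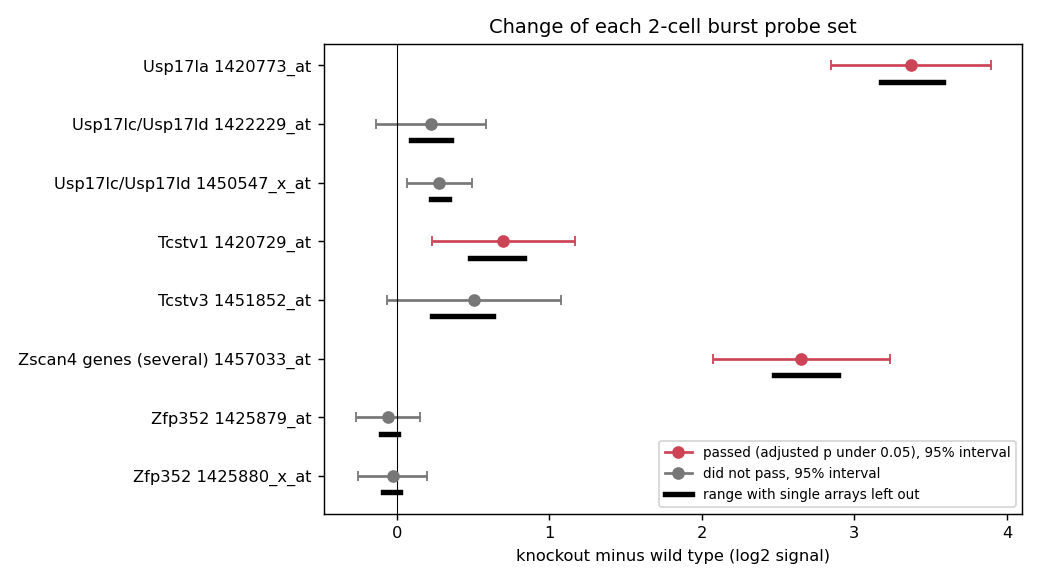
Difference between knockout and wild type for each member probe set on the log2 scale (points, with 95% intervals from limma), with the range obtained when single arrays were left out as a thick line below. Usp17la (3.37) and Zscan4 (2.65) lie far to the right of the other member probe sets, whose differences lie between -0.06 and 0.70.

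Tcstv1 and Tcstv3, which lie near each other on chromosome 13, had differences of 0.70 and 0.51 log2. Tcstv1 read 9.35, 8.90, 9.01 and 8.93 on the wild-type arrays and 10.41, 9.66, 9.34 and 9.58 on the knockout arrays (1420729_at). Knockout array 1 was far above the rest, and the groups touched, because wild-type array 1 read 0.01 above knockout array 3. The difference of 0.70 ± 0.209 (SE), or 1.62-fold, passed narrowly (adjusted p = 0.0496), with an exact two-sided permutation p of 0.0571. The call ended without wild-type array 2 (adjusted p = 0.118), 3 (0.0967) or 4 (0.116), or without knockout array 2 (0.0792) or 4 (0.0708). It passed without wild-type array 1 (0.80, adjusted p = 0.0435), without knockout array 1 (0.48, 0.0464) and without knockout array 3 (0.83, 0.0329).

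Tcstv3 read 8.74, 8.28, 8.51 and 8.14 on the wild-type arrays and 9.75, 8.56, 8.54 and 8.83 on the knockout arrays (1451852_at). As for Tcstv1, array 1 was the highest in each group, and the groups overlapped. The difference of 0.51 (95% interval -0.06 to 1.08) did not pass (adjusted p = 0.23). Without knockout array 1 it was 0.23 (adjusted p = 0.372). The change of Tcstv1 was larger by 0.19 log2, which did not pass (exact two-sided permutation p = 0.143, 0.143 adjusted).

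Zfp352, a zinc finger gene of 2-cell embryos, did not pass in either probe set. Its brighter probe set (1425879_at) read 6.95, 7.04, 7.25 and 6.98 on the wild-type arrays and 6.95, 7.13, 7.06 and 6.85 on the knockout arrays. The groups overlapped, and the difference of -0.06 had a 95% interval of -0.27 to 0.15 (adjusted p = 0.745), or 0.83-fold to 1.11-fold. The dimmer one (1425880_x_at) read 4.40 to 4.68 in wild type and 4.41 to 4.74 in knockout (difference -0.03, adjusted p = 0.902). The Zscan4 change exceeded that of the brighter Zfp352 probe set by 2.71 log2 (exact two-sided permutation p = 0.0286, 0.0476 adjusted). That p is the smallest these arrays allow, and the pair was chosen after the values were seen. No detection calls were used, so a Zfp352 transcript may not have been measured at all.

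The first number of each mouse's title code occurs in both groups for 2 codes, whose meaning the labels do not give. Wild-type arrays 3 and 4 share code 28, which no knockout array carries, so whether these 2 mice are independent is not known. In code 24 (wild-type array 1 and knockout array 2) the knockout exceeded the wild type by 3.61 log2 for Usp17la and 2.36 for Zscan4, and in code 27 (wild-type array 2 and knockout array 4) by 3.58 and 3.03. The same differences for Tcstv1 were 0.31 and 0.68, and for Tcstv3 -0.17 and 0.55. Codes 24 and 27 each hold 1 array per group, so a single code has no test. With both codes as a block (4 arrays, 1 residual degree of freedom), limma gave 3.60 for Usp17la (adjusted p = 0.0178), 2.69 for Zscan4 (0.0184), 0.49 for Tcstv1 (0.222) and 0.19 for Tcstv3 (0.74).

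Among 44 other genes known for high transcript levels in 2-cell embryos or 2-cell-like stem cells, 15 had a probe set with a single symbol. Of these, 2 rose and 0 fell, beside 8.18% and 12.8% of all 18193 genes, and the median difference was 0.13 log2 against 0.0027 over all genes. Lmx1a, a homeobox gene, read 6.19, 6.33, 6.18 and 5.66 on the wild-type arrays and 7.69, 6.95, 6.94 and 7.86 on the knockout arrays. Its groups did not overlap, and it rose 2.41-fold (adjusted p = 0.00517). Rfpl4b, of the ret finger protein-like family, read 5.64, 5.69, 6.04 and 6.04 on the wild-type arrays and 6.49, 6.40, 6.46 and 6.74 on the knockout arrays. The groups did not overlap, and it rose 1.59-fold (adjusted p = 0.00451).

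The remaining 13 did not pass. Duxf3, a symbol of the Dux family, read 4.53 to 4.75 in wild type and 4.42 to 4.79 in knockout, with a difference of 0.01. Ddit4l, a stress gene that lowers mTOR signalling, had a difference of 0.82 (adjusted p = 0.138), with knockout arrays 1 and 4 at 8.40 and 8.80 and arrays 2 and 3 at 7.23 and 7.39. Knockout arrays 1 and 4 were also the highest in Lmx1a and Zscan4. For Sp110, a nuclear body protein, the brightest probe set did not pass (0.21, adjusted p = 0.285) while 2 others rose.

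**Figure D3:**
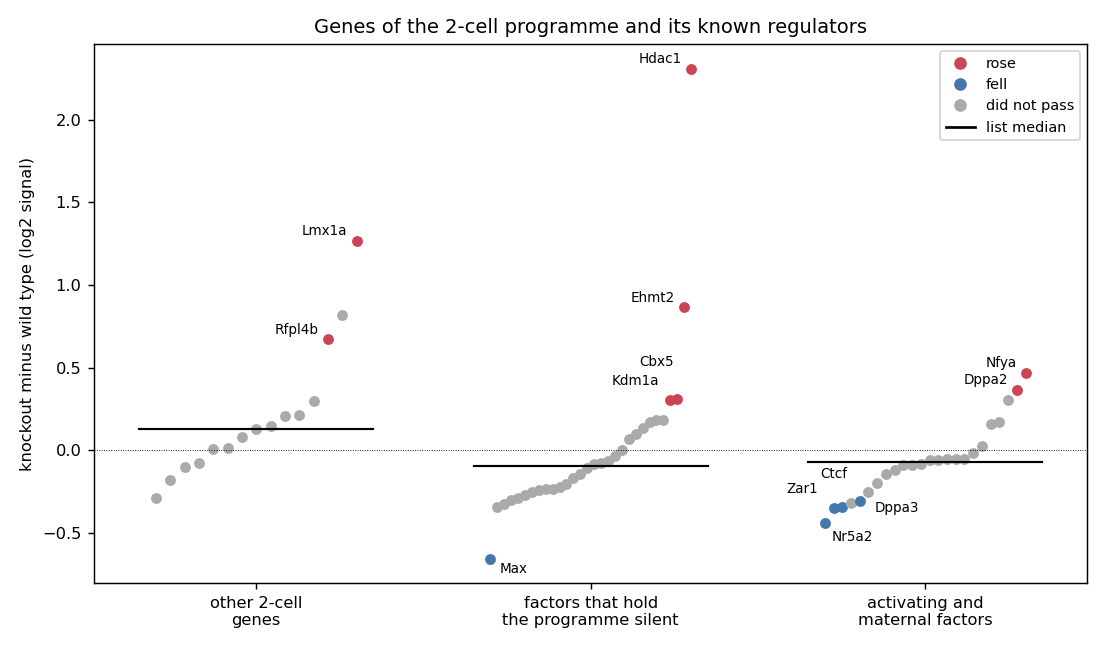
Log2 difference between knockout and wild type for each measured gene of 3 lists (points in order of size, 1 probe set per gene): other 2-cell genes (n = 15), factors known to hold the programme silent (n = 30) and activating or maternal factors (n = 24), with the list median as a line. Genes that passed are named; Hdac1 (2.31) and Lmx1a (1.27) are the highest points.

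Of 30 measured factors known to hold the 2-cell programme silent in embryonic stem cells, 25 did not pass, 4 rose and 1 fell, beside 8.18% and 12.8% of all genes, with a median of -0.09 log2. These counts use 1 probe set per gene. Among the 25, 2 other probe sets of Ncl and 1 other of E2f6 rose, while 1 other each of Suv39h2 and Hdac2 fell. Hdac1, a histone deacetylase, read 8.84, 8.32, 8.22 and 8.11 on the wild-type arrays and 10.51, 10.93, 10.65 and 10.62 on the knockout arrays, with no overlap, and rose 4.96-fold. Ehmt2, a methyltransferase for lysine 9 of histone H3, rose 1.82-fold in its brighter probe set, while the other did not pass (0.05, adjusted p = 0.759). Kdm1a, a histone demethylase, and Cbx5, a heterochromatin protein, rose 1.24-fold each in their brightest probe sets. The other Kdm1a probe set (0.46, adjusted p = 0.0633) and the other 4 of Cbx5 (-0.01 to 0.41) did not pass. Max, a partner of Myc and Mga, fell by 0.66 log2 (adjusted p = 0.0405), and no factor of the list fell after quantile normalization or cyclic loess. Trim28, Setdb1, Dnmt1 and Lin28a did not pass (-0.06, -0.30, -0.08 and -0.32). The number that rose was 2 when wild-type array 1 or 2 or knockout array 1 was left out. The number that fell was 0 without wild-type array 1 or 2 or knockout array 3 or 4.

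Of 24 measured factors known for activation of the zygotic genome or of 2-cell genes, 2 rose and 4 fell, beside 8.18% and 12.8% of all genes, with a median of -0.07 log2. Nfya, the subunit of NF-Y that recognises the CCAAT box, rose 1.38-fold in its brightest probe set (12.51 to 12.78 in wild type and 13.03 to 13.33 in knockout, adjusted p = 0.00683). Of its 2 other probe sets, 1 rose. Dppa2, which with Dppa4 is known to open the Dux locus in stem cells, rose 1.29-fold (12.45 to 12.66 against 12.87 to 13.06, adjusted p = 0.0112) and also in its other probe set (0.76 log2). Dppa4 did not pass (-0.32, adjusted p = 0.225). Zar1, a maternal RNA-binding protein, fell by 0.35 log2 and the nuclear receptor Nr5a2 by 0.44 in its brightest probe set. The maternal factor Dppa3 fell by 0.30 and the insulator protein Ctcf by 0.34. None of the 3 other Nr5a2 probe sets passed (-0.29, -0.23 and 0.11), while the other Ctcf probe set also fell. Zar1 and Dppa3 are also counted among the oocyte markers below, and Nr5a2 among the cumulus and granulosa markers. Without wild-type array 1 or knockout array 3, 2 of the 24 fell. Smarca4, Yap1, Nelfa and the Obox genes measured did not pass.

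Genes beside the members were read for comparison. In the order of the RefSeq gene table, the 5 measured genes on either side of each member were taken (fewer for the Tcstv genes). Only genes with a single-symbol probe set counted, and genes whose symbols begin with Usp17l, Zscan4 or Tcstv were left out. Relatives under other names were not searched for, so the neighbours may include some. This gave 48 genes, of which 4 rose and 4 fell, beside 8.18% and 12.8% of all genes. These neighbours were looked up after the members' values were known. Beside Usp17la on chromosome 7, Trim30a, of the TRIM family, rose by 1.33 log2 and Cnga4, an olfactory ion channel subunit, fell by 1.15, while 8 did not pass. Beside Zscan4c, also on chromosome 7, Zscan18 (0.82) and Zfp329 (0.62) rose and Zfp606 fell by 0.80. None of the 10 neighbours of Usp17lc passed, and Mtap and Elavl2 beside Zfp352 on chromosome 4 fell by 1.02 and 0.29. Beside Tcstv1, AF067061 rose by 0.65 (11.41 to 12.07, adjusted p = 0.0237) in a probe set whose suffix marks shared sequence. AF067063, also beside Tcstv1, did not pass and is itself in the list of other 2-cell genes.

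**Figure D4:**
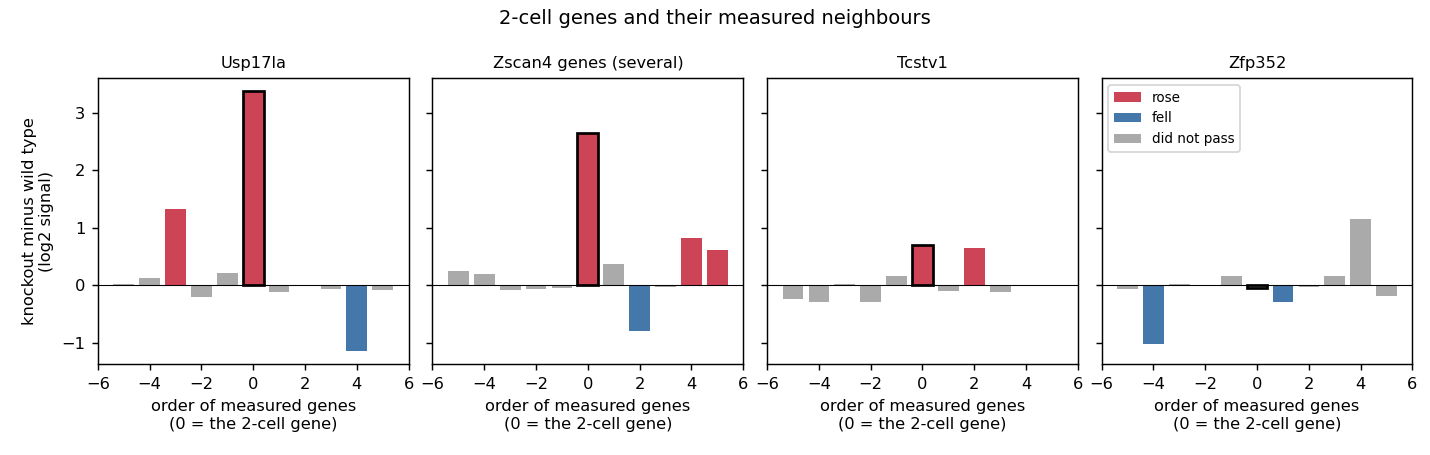
Log2 difference between knockout and wild type for Usp17la, Zscan4, Tcstv1 and Zfp352 (outlined bars at 0) and for up to 5 measured genes on either side in gene order, coloured by whether they passed. The outlined bars of Usp17la (3.37) and Zscan4 (2.65) exceed every neighbour shown, whose values lie between -1.15 and 1.33. Genes whose symbols begin with Usp17l, Zscan4 or Tcstv were not counted as neighbours, while relatives under other names may be among them.

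The genes whose levels followed Usp17la most closely over the 8 arrays were Spata7 (Pearson r = 0.9948), Wdr34 (0.9947), C1qb (0.994), Memo1 (0.9931) and Gucy1a1 (0.9929), by a rule that took the 5 highest correlations. Spata7, a gene of photoreceptors and spermatogenesis, rose 5.74-fold and C1qb, a complement subunit, 5.12-fold. For Zscan4 they were Cby2 (0.9977), Pla2r1 (0.9954), Trip4 (0.9938), Ess2 (0.9933) and Siglece (0.9914), all of which rose, by 1.29-fold to 2.79-fold. For Tcstv1 they were Cdkn2d (0.9848), Atn1 (0.9671), Vmn1r45 (0.9622), Flt3 (0.9579) and Sdad1 (0.9545), of which Cdkn2d and Sdad1 rose. These correlations describe 8 arrays in 2 groups, so any gene that differs strongly between the groups scores high. Correlations above 0.95 were found for 324 genes with Usp17la, 168 with Zscan4 and 5 with Tcstv1.

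Markers of other cells were read on the same arrays, where 8.18% of all genes rose and 12.8% fell. The list for cumulus and granulosa cells had 22 measured genes, of which 10 fell and 0 rose, and their mean log2 level was 7.71 to 7.98 on wild-type arrays against 7.29 to 7.61 on knockout arrays. Nr5a2, whose fall is also counted among the activating factors above, and Greb1 (-0.68) had the lowest p. Without knockout array 3 the number that fell was 6. Of 21 leukocyte markers, listed because Usp17-like genes are known from blood cells, 3 rose (Cd68, 1.16; Itgam, 0.39; Cd79b, 0.31) and 2 fell (Il2rb, -0.89; Ms4a1, -0.42). Their mean level was 6.54 to 6.75 in wild type and 6.67 to 6.77 in knockout. Ptprc, found on all leukocytes, read 3.88 and 3.85, Il3ra 6.06 and 6.13, and Csf2rb 5.02 and 5.10. Ms4a1 was the brightest of this list, at 11.93 and 11.52, and the source of its signal was not tested. Without wild-type array 1, 2 or 4 or knockout array 1 or 3, 1 leukocyte marker rose.

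Of 13 theca, stroma, vessel and red cell markers, 2 fell and 0 rose, beside 12.8% and 8.18% of all genes. Those that fell were the endothelial receptors Tek (-0.78) and Kdr (-0.54). The mean levels of the list were 6.39 to 6.57 in wild type and 6.28 to 6.41 in knockout. Of 15 oocyte markers 6 fell, Mos (-0.36) and Zar1 with the lowest p, and 0 rose, beside the same shares of all genes. Their mean levels were 13.42 to 13.51 in wild type and 13.29 to 13.38 in knockout. Without knockout array 3, 3 oocyte markers fell, and with cyclic loess 3 fell and 1 rose. No marker is at 0 on this scale, and no detection calls were used. The part of these markers in the rise of Usp17la and Zscan4 was not tested.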

How the data were processed

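Each array gave 1 log2 signal per probe set, as deposited by the authors, for a mouse expression array. The submitters' processing notes name RMA and Partek without a version. The table held 45101 probe sets, 64 of them controls, with 0 missing values, 0 columns of other samples and 0 identical pairs of arrays. The genotype label gave the groups, and the labels name a mouse for each array. With 4 arrays a group, their number bounds the precision. In the platform annotation 34945 probe sets had 1 symbol, 932 several and 9160 none.

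The fit of knockout minus wild type used lmFit and eBayes of limma 3.58.1 (R 4.3.3) and no covariates, with Benjamini-Hochberg adjustment over 45037 probe sets. List counts used the brightest single-symbol probe set of a gene. Upstream sequences were aligned with Biopython 1.88, end gaps free. The fit was tested on simulated data.

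The text names every member probe set, the 2 lowest p in each direction of each list, and the 5 genes most correlated with each member that passed. Other names complete a count or were picked with their values in view. The members and lists were chosen with earlier results of these data known. Alternatives covered scaling, dim probe sets, variance models, array weights, title codes as blocks, a gene's probe sets, and leaving out each array.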

Additional observations from a re-analysis of the deposited data

Results flagged for a closer look

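Among 102 sets of 4 values (1 group each, for member probe sets and genes of the lists that passed), 8 had an array whose distance to its nearest value took up most of the spread (Dixon's criterion). About 5.1 such sets would come up by chance. Of the members, Zfp352 in its dimmer probe set read 4.40 on wild-type array 4 and 4.64 to 4.68 on the others. Dppa2 read 12.45 on wild-type array 4 against 12.64 to 12.66, and Nfya 12.51 on wild-type array 3 against 12.74 to 12.78. Ehmt2 read 8.05 on knockout array 4 against 7.88 to 7.90, and Dppa3 13.26 on knockout array 3 against 13.40 to 13.43. Kit read 12.30 on knockout array 2 against 11.98 to 12.02, Ms4a1 11.40 on knockout array 1 against 11.55 to 11.57, and Ooep 14.26 on wild-type array 1 against 14.16 to 14.17. Usp17la, Zscan4, Tcstv1 and Tcstv3 had no such array.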

How the results depend on the processing

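Usp17la and Zscan4 passed in all 17 alternatives, with log2 differences of 3.17 to 3.60 and 2.47 to 2.89 (largest adjusted p 0.0178 and 0.0184). In the alternative restricted to brighter probe sets, Usp17la was kept only through its knockout signal, so that alternative is no separate support for it. Tcstv1 passed in 9 of 17. It missed the threshold with array medians aligned (0.67, adjusted p = 0.0688), with robust variance (0.70, adjusted p = 0.0562) and with title code as a replicate block on the 4 arrays whose code occurs in both groups (0.49, adjusted p = 0.222), and was 0.48 to 0.83 with single arrays left out. That block left 1 residual degree of freedom: 603 probe sets rose and 596 fell, and of the lists 0 other 2-cell genes, 1 silencing factor and 0 activating factors rose while 0 silencing and 0 activating factors fell. The labels do not define the codes, and replicate numbers here follow accession order, so no pairing is known.

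Among the other 2-cell genes, 1 rose when only probe sets above the median level were tested, and 1 fell with aligned medians and 1 with an intensity trend in the variance. The silencing factors that fell numbered 0 with quantile normalization or cyclic loess and 2 with aligned medians or brighter probe sets; with single arrays left out, 0 to 1 fell and 2 to 3 rose. Of the activating factors, 2 fell with cyclic loess and 2 to 4 with single arrays left out. The cause of these shifts was not tested. Of all counts, 266 stayed within 1.5 times of the value given and 41 did not. The 266 include counts of 0 that stayed 0. They also include a count of 2 in place of 3 member probe sets that rose, where Tcstv1 missed the threshold. They are therefore no measure of stability.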
